A study of Mus musculus with 6 samples.

Results

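The Toll-like receptors examined here are 10 genes of 55401 in the deposited table, namely Tlr1 to Tlr9 and Tlr13. They were chosen by gene symbol, with earlier results of the same MoS2 against PBS contrast known, so their levels and fold changes in that contrast are a description and carry no test. RNA was sequenced in bulk from RAW264.7, a macrophage-like mouse cell line labelled wild type. Its 2 groups are cells given molybdenum disulfide (MoS2) at 6.25 µg/ml and cells given phosphate-buffered saline (PBS), with 3 libraries each. The labels give neither the length of the treatment nor whether the libraries came from separate cultures, so every error and p-value below rests on the spread among these libraries, and that spread may be technical only. The cells were kept in DMEM with serum.

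Toll-like receptors are membrane proteins with which macrophages detect microbial molecules. TLR1, TLR2, TLR4, TLR5 and TLR6 face the outside of the cell and bind bacterial lipoproteins, lipopolysaccharide or flagellin, while TLR3, TLR7, TLR8, TLR9 and TLR13 sit in endosomes and bind nucleic acids. After binding, the adaptors MyD88 or TRIF start kinase cascades that end in NF-kB and interferon regulatory factors, and in macrophages the receptor transcripts are themselves known to be regulated during activation.

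Total counts were 15767618 to 18412762 per MoS2 library and 17008020 to 17695883 per PBS library. Of the 12 macrophage markers listed, 11 averaged at least 1 CPM (counts scaled to a common library size, here with TMM library factors) in the 6 libraries, and Mertk did not. Their summed level was 5975 to 6379 CPM with MoS2 and 7889 to 8119 CPM with PBS, but the markers did not move together. Lyz2 had 1976 CPM with MoS2 and 3624 with PBS and Csf1r 513 with MoS2 and 1909 with PBS, while Cd68 had 1304 with MoS2 and 614 with PBS and Fcer1g 772 with MoS2 and 311 with PBS (group means). Itgam and Tyrobp were also higher with MoS2, Tyrobp at 347 CPM with MoS2 and 228 with PBS. Fcgr1, Spi1 and Aif1 were lower, at 22.3, 212 and 0.768 CPM with MoS2 and 46.4, 284 and 1.69 with PBS. Adgre1 and Cd14 differed little. These levels are under TMM factors, and a difference as small as that of Tyrobp depends on the scaling. The part of these marker differences in the results below was not tested. None of the 29 markers of the 6 other cell types listed averaged 1 CPM, and the summed level of each of those lists was at most 0.878 CPM in any library. Cd3d, Cd8a, Trac, Ms4a1, Col3a1, Krt18, Cdh1, S100a9 and Mpo had 0 counts in all 6 libraries. Of the 12972 genes tested with edgeR, 80.7% were called at an adjusted p below 0.05, 38.3% as higher and 42.4% as lower with MoS2.

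Transcripts of the receptor family were far scarcer with MoS2. The 10 receptors together had 3304 counts in the 3 MoS2 libraries and 40622 in the 3 PBS libraries, or 85.8 ± 4.60 CPM with MoS2 and 595 ± 21.6 CPM with PBS (SD, n = 3 each). That is a 6.93-fold lower summed level under TMM factors, and an 11.8-fold lower one when libraries were scaled by their totals alone. In bulk RNA, fewer transcripts per cell and fewer cells that express a gene cannot be told apart. Library totals shifted the median log2 fold change of all tested genes by -0.77, to -0.85, against -0.08 under TMM factors, and each receptor shifted with it.

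The promoter windows of a few receptors are shown because these members differed most and least between the groups or were the most abundant. RefSeq windows (GRCm38.p6, 250 bases before to 50 after the annotated start, receptor strand, 5′ to 3′) matched 8 of the 10 receptors by symbol, and none matched Tlr4 or Tlr7. Capitals mark the letters GAGGAA, a core bound by the macrophage factor PU.1, TGANTCA, bound by AP-1, a pair of GAAA with 2 bases of any kind between, a response element of interferon, and GGG and CC with 5 bases of any kind between, bound by NF-kB, searched on both strands. These motifs were chosen with the expression results known. Tlr13 (chrX:106143025-106143324, plus strand) and Tlr9 (chr9:106222348-106222647, plus strand) had among the lowest fold changes, Tlr2 (chr3:83841559-83841858, minus strand) the highest level, and Tlr1 (chr5:64933509-64933808, minus strand) the fold change nearest 0.
Tlr13: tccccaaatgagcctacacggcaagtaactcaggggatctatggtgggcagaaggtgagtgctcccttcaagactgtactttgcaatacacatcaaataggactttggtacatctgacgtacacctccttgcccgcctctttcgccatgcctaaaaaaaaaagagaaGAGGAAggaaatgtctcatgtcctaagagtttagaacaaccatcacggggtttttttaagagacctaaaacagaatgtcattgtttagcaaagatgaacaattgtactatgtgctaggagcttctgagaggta
Tlr9: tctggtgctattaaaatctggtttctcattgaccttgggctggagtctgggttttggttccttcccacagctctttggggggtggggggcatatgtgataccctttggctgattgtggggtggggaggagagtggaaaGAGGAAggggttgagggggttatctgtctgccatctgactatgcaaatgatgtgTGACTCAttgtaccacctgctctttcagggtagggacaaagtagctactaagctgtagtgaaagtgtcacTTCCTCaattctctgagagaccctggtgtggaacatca
Tlr2: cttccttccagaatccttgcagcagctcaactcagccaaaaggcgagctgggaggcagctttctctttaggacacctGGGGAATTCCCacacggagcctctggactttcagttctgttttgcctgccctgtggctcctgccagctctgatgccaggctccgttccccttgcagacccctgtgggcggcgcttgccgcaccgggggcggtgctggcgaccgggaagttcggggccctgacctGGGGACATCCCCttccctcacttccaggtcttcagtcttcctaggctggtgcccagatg
Tlr1: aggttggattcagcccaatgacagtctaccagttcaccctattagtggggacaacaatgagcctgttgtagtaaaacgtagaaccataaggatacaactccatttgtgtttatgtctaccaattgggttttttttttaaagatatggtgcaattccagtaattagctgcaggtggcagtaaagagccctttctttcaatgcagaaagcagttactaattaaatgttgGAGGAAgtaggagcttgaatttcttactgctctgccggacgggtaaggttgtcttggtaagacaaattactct

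The PU.1 core letters stood in a window of Tlr1, Tlr8, Tlr9 and Tlr13, that is in 4 of 8 receptors with a window. Counted by window, they stood in 4 of the 10 receptor windows and in 28.3% of all 32851 windows of the table. The NF-kB letters stood in a window of Tlr2, Tlr3, Tlr5 and Tlr6, in matches that overlap one another in Tlr2. That is 4 of the 10 receptor windows, beside 50.8% of all windows. AP-1 letters were found in Tlr9 alone among the receptors and in 7.81% of all windows, and the interferon element in 1 of the 2 windows of Tlr6, as overlapping matches, and in 3.44% of all windows. Tlr13 and Tlr1, at opposite ends of the range of fold changes, both held the PU.1 letters and none of the other motifs in the windows shown above. These matches are letters in a window, not measured binding.

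Among the receptors of the cell surface, Tlr2 had the highest level per exon length in both groups. TLR2 pairs with TLR1 or TLR6 to bind bacterial lipopeptides (Tlr2, ENSMUSG00000027995.10, GRCm38 chromosome 3, 83836272 to 83841767). Its counts were 433, 377 and 491 in the MoS2 libraries, against 4595, 4569 and 4367 in the PBS libraries. In CPM these were 34.6, 30.6 and 35.9 with MoS2 and 199, 198 and 196 with PBS. The PBS libraries lay almost on one value, every MoS2 library was far below them, and the log2 fold change was -2.55 ± 0.07 (SE), or 17.0% of the PBS level.

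Tlr4 encodes the lipopolysaccharide receptor, which works with MD-2 and CD14 (ENSMUSG00000039005.13, GRCm38 chromosome 4, 66827584 to 66930284). It had 215, 234 and 242 counts in the MoS2 libraries, against 1286, 1426 and 1420 in the PBS libraries, or 17.9 ± 0.923 CPM with MoS2 and 60.5 ± 4.21 CPM with PBS. The groups did not overlap, and MoS2-treated cells kept 29.7% of the PBS level, a log2 fold change of -1.75 ± 0.09.

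Tlr1 and Tlr6, the partners of Tlr2, differed least. Tlr1, which with TLR2 binds triacylated lipopeptides (ENSMUSG00000044827.10, GRCm38 chromosome 5, 64924679 to 64933563), had 10.6, 10.5 and 11.3 CPM with MoS2 and 13.3, 17.2 and 18.5 CPM with PBS. PBS replicate 1 came close to the MoS2 libraries, which were tight, and the log2 fold change was -0.60 ± 0.14, or 66.1% of the PBS level. Tlr6, which with TLR2 binds diacylated lipopeptides (ENSMUSG00000051498.7, GRCm38 chromosome 5, 64952031 to 64960097), had 7.83, 6.57 and 5.49 CPM with MoS2 and 10.4, 15.2 and 12.4 CPM with PBS. Its groups did not overlap, but the gap between them was narrower than the range within the PBS libraries, and the log2 fold change was -0.94 ± 0.18, or 52.3% of the PBS level.

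Tlr1 and Tlr6 lie 18467 bases apart on chromosome 5 and are close copies. Their GENCODE M21 transcripts shared 454 stretches of 50 identical bases, 13.6% of the stretches of that length in Tlr1 and 12.3% of those in Tlr6. Stretches were taken from every start base, so they overlap and are not separate regions. Of stretches of 150 bases they shared 139, or 4.30% of those in Tlr1 and 3.86% of those in Tlr6. No other of the 45 receptor pairs shared a stretch of either length. The labels do not say how reads that map to both were counted, so the split of counts between Tlr1 and Tlr6 is uncertain.

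Tlr5, the flagellin receptor (ENSMUSG00000079164.8, GRCm38 chromosome 1, 182954788 to 182976044), had 0 counts in all 6 libraries. A count of 0 over the 102840751 counts of the series allows a level of up to 0.0281 CPM, for counting error only. That level is a floor of 3 counts over the summed library sizes after TMM factors. The remaining mouse family members, Tlr11 and Tlr12, which bind a profilin of parasites and are not among the 10, also had 0 counts in every library.

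Among the endosomal receptors, Tlr13 stood farthest apart between the groups. TLR13 recognises a stretch of bacterial ribosomal RNA in mouse (Tlr13, ENSMUSG00000033777.4, GRCm38 chromosome X, 106143204 to 106160493). Its counts were 63, 61 and 53 with MoS2, against 2440, 2381 and 2302 with PBS, or 5.03, 4.94 and 3.88 CPM with MoS2 and 106, 103 and 103 CPM with PBS. MoS2-treated cells had 4.43% of the PBS level, a log2 fold change of -4.50 ± 0.10.

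Tlr7, the receptor for single-stranded RNA (ENSMUSG00000044583.13, GRCm38 chromosome X, 167304929 to 167330558), was second to Tlr2 with PBS per exon length. It had 161, 111 and 118 counts in the MoS2 libraries, against 3897, 4271 and 4330 in the PBS libraries, or 10.2 ± 2.34 CPM with MoS2 and 183 ± 12.98 CPM with PBS. The level with MoS2 was 5.55% of that with PBS, with MoS2 replicate 1 above the other two, and the log2 fold change was -4.17 ± 0.12. Tlr8, its neighbour 40599 bases away, is a related receptor for RNA (ENSMUSG00000040522.5, GRCm38 chromosome X, 167242696 to 167264329). Tlr8 had 0 counts in each MoS2 library and 5, 4 and 13 counts in the PBS libraries. With its 0 set at a floor of 3 counts over the group, the level was at least 4.13-fold lower with MoS2. This is a lower bound, so it cannot be ranked against the fold changes of the other receptors. That figure leaves out the error of the few PBS counts, 13 of which came from PBS replicate 3.

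Tlr9, the receptor for unmethylated CpG DNA (ENSMUSG00000045322.10, GRCm38 chromosome 9, 106222598 to 106226883), had 23, 10 and 9 counts with MoS2 and 262, 381 and 332 counts with PBS. In CPM these were 1.84, 0.811 and 0.658 with MoS2 and 11.4, 16.5 and 14.9 with PBS. The MoS2 level was 7.72% of the PBS level, with a log2 fold change of -3.70 ± 0.27, or -4.27 without MoS2 replicate 1, which was the high one.

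Tlr3, the receptor for double-stranded RNA that signals through TRIF (ENSMUSG00000031639.12, GRCm38 chromosome 8, 45395665 to 45411080), had the lowest level per exon length of the tested receptors. It had 13, 11 and 9 counts with MoS2 and 115, 116 and 131 counts with PBS, or 1.04, 0.892 and 0.658 CPM with MoS2 and 4.99, 5.04 and 5.89 CPM with PBS. The groups lay well apart, at a log2 fold change of -2.62 ± 0.26 and 16.3% of the PBS level. Its exons share 381 bases with the opposite-strand gene model Gm45542, so part of its counts cannot be assigned without strand.

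**Figure D1:**
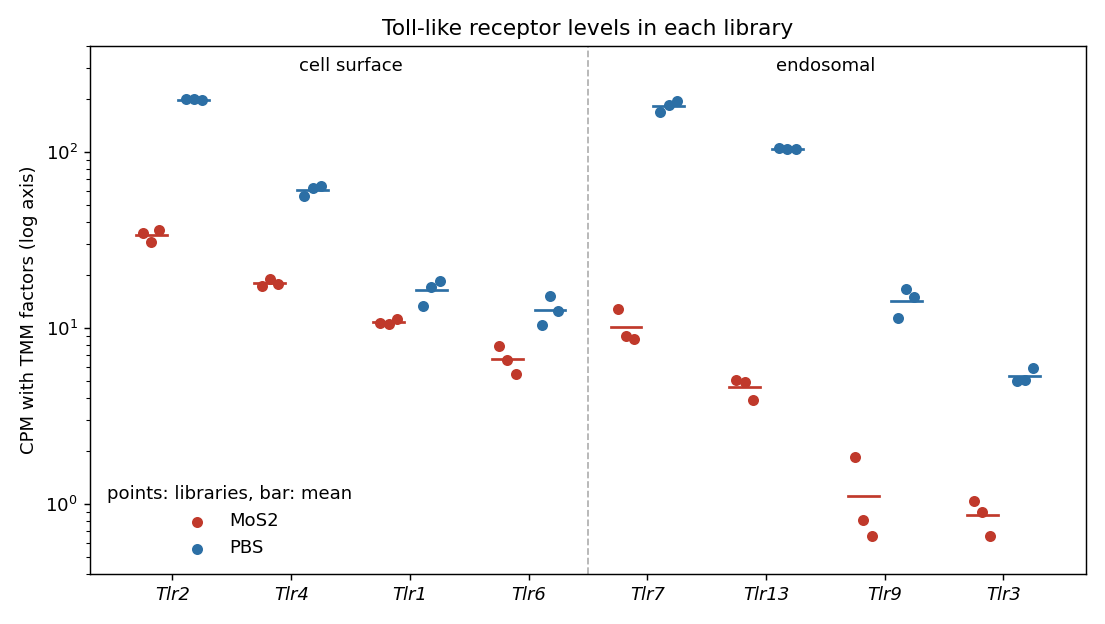
Level of the 8 tested receptors in each library, as CPM with TMM factors on a log axis, with receptors of the cell surface left of the dashed line and endosomal ones right of it. Points are libraries (red MoS2, blue PBS, replicates 1 to 3 from left to right) and bars are group means; Tlr13 lies at 3.88 to 5.03 CPM with MoS2 and 103 to 106 CPM with PBS, and Tlr1 shows the narrowest gap.

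Of the 10 receptors, 8 passed the filter on low counts and Tlr5 and Tlr8 did not. Tlr3 and Tlr9 reached the filter in 2 of 3 MoS2 libraries and in all 3 PBS libraries, so they passed through the group in which they were high. No MoS2 library reached a PBS library for any of the 8, as for 43.1% of all tested genes. All 8 were also among the 42.4% of tested genes called lower by edgeR, and 6 of the 8 had a log2 fold change of -1 or less, as did 24.0% of tested genes. Tlr1 had the fold change nearest 0 of the 8, and 34.1% of tested genes were at or below it. The median log2 fold change of the 8 was -2.59, beside -0.08 over all tested genes, and since the contrast was known when the receptors were chosen these counts describe them only.

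The 4 tested endosomal receptors had log2 fold changes of -4.50 to -2.62, and the 4 tested receptors of the cell surface had -2.55 to -0.60. The order was Tlr13, Tlr7, Tlr9, Tlr3, Tlr2, Tlr4, Tlr6 and Tlr1, from the lowest fold change to the one nearest 0. Tlr3 and Tlr2 stood side by side, within the SE of Tlr3, so no gap separated the 2 classes. Their order turned round without MoS2 replicate 3 (-2.44 for Tlr3 and -2.60 for Tlr2), without PBS replicate 3 (-2.55 and -2.58) and after a trend of fold change with exon length and GC was taken out (-2.51 and -2.52), and the split between endosomal and surface values turned with it. Scaled by library totals alone, the values ran from -5.27 for Tlr13 to -1.37 for Tlr1. With that trend taken out, they ran from -4.47 to -0.64.

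**Figure D2:**
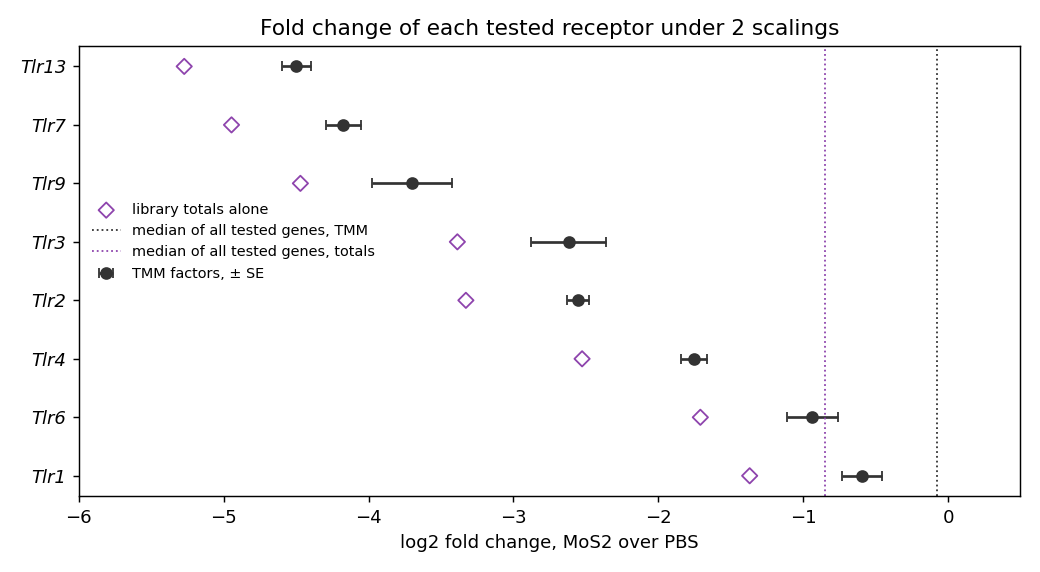
Log2 fold change (MoS2 over PBS) of each tested receptor, with filled points and SE bars for TMM factors and open diamonds for library totals alone. Dotted lines mark the median of all tested genes under each scaling, -0.08 and -0.85; every receptor lies below the line of its own scaling, from -0.60 for Tlr1 to -4.50 for Tlr13 under TMM factors.

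Exon length, level and chromosome of the receptors were set beside all tested genes. The 4230 tested genes in the range of exon lengths of the tested receptors, 3014 to 5556 bases, had a median log2 fold change of -0.18. The 8989 tested genes within the receptors' range of PBS levels had a median of -0.09. Tlr7, Tlr8 and Tlr13 lie on chromosome X, whose 381 tested genes had a median of 0.09.

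Levels of different receptors were compared as CPM per kilobase of exon. With MoS2 the order was Tlr2 at 11.2 ± 0.925, then Tlr4 at 3.23 ± 0.166, Tlr1 at 3.22 ± 0.128, Tlr7 at 2.49 ± 0.574, Tlr6 at 1.78 ± 0.314, Tlr13 at 1.07 ± 0.149, Tlr9 at 0.317 ± 0.184 and Tlr3 at 0.166 ± 0.0368 CPM per kilobase (SD, n = 3). With PBS it was Tlr2 at 65.7 ± 0.516, Tlr7 at 44.8 ± 3.18, Tlr13 at 24.2 ± 0.318, Tlr4 at 10.9 ± 0.758, Tlr1 at 4.88 ± 0.814, Tlr9 at 4.10 ± 0.763, Tlr6 at 3.40 ± 0.658, Tlr3 at 1.02 ± 0.0971 and Tlr8 at 0.0906 ± 0.0629 CPM per kilobase. Neighbours whose libraries overlapped were Tlr4 with Tlr1, Tlr1 with Tlr7 and Tlr9 with Tlr3 under MoS2, and Tlr1 with Tlr9 and Tlr9 with Tlr6 under PBS. Tlr7 and Tlr13 held ranks 4 and 6 with MoS2 and ranks 2 and 3 with PBS, while Tlr1 held rank 3 with MoS2 and rank 5 with PBS.

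The make-up of the receptor pool does not depend on how libraries are scaled, because each receptor is divided by the sum of the family in the same library. Endosomal receptors made up 20.3%, 16.9% and 14.3% of the summed counts per kilobase in the MoS2 libraries, against 45.9%, 46.6% and 47.5% in the PBS libraries. Receptors of the cell surface held the rest, 82.8% ± 2.99 with MoS2 and 53.3% ± 0.807 with PBS. The groups were well apart, and without division by length the endosomal shares were 19.4% with MoS2 and 51.6% with PBS. Tlr7 and Tlr13 held most of the endosomal share in both groups, so the difference between the classes rests mainly on them. The mean share of Tlr3 was not lower with MoS2.

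Within the pool, Tlr2 held 47.7% ± 3.07 with MoS2 and 41.3% ± 1.64 with PBS, a slightly larger share with MoS2 beside a 5.88-fold lower level. Tlr7 held 10.6% ± 1.87 with MoS2 and 28.2% ± 1.13 with PBS, and Tlr13 4.58% ± 0.660 with MoS2 and 15.2% ± 0.710 with PBS. Tlr1 held 13.8% ± 0.896 with MoS2 and 3.06% ± 0.419 with PBS, and Tlr4 13.8% ± 1.49 with MoS2 and 6.84% ± 0.258 with PBS. Tlr6 held 7.57% ± 1.10 with MoS2 and 2.13% ± 0.367 with PBS. The larger shares of Tlr1, Tlr4 and Tlr6 with MoS2 stand beside lower levels of all 3. Tlr9 at 1.33% ± 0.698 with MoS2 and 2.57% ± 0.411 with PBS, and Tlr3 at 0.705% ± 0.141 with MoS2 and 0.640% ± 0.0493 with PBS, were minor in every library.

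**Figure D3:**
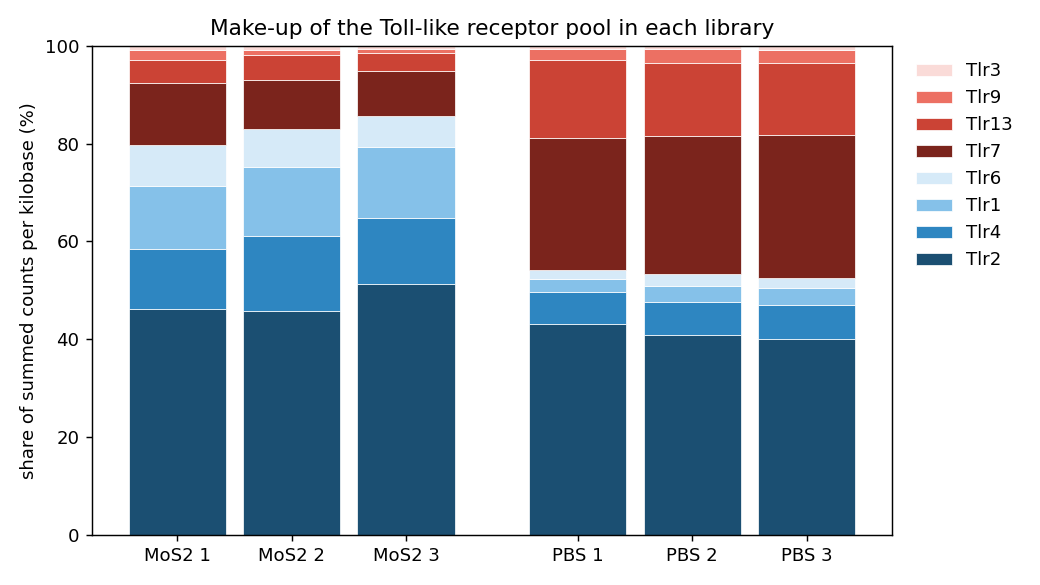
Share of each receptor in the summed counts per kilobase of the family (percent), 1 bar per library, MoS2 left and PBS right, with blue shades for receptors of the cell surface and red shades for endosomal ones. The red part takes 14.3% to 20.3% of the MoS2 bars and 45.9% to 47.5% of the PBS bars, and Tlr2 is the largest single part of each bar.

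Replicate spread differed between receptors. With PBS the coefficient of variation was 0.786% for Tlr2 and 1.31% for Tlr13, below the 1.49% and 2.05% that counting alone gives. It was 16.7% for Tlr1, 19.4% for Tlr6 and 18.6% for Tlr9, above counting errors of 5.19%, 5.89% and 5.55%, and PBS replicate 1 was the lowest PBS library for all of them. With MoS2 the widest spreads were 58.2% for Tlr9 and 23.0% for Tlr7, against counting errors of 26.7% and 8.77%, and MoS2 replicate 1 was the highest MoS2 library for both.

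The genes whose profile over the 6 libraries was most like that of the receptors at both ends were found by the Euclidean distance of centred log2 CPM among 9250 genes. For Tlr13 they were Sgsh, a lysosomal sulfatase, at a distance of 0.443, the G protein-coupled receptor gene Gpr132 at 0.461, and Tlr7 at 0.474. Sgsh had 3.34 ± 0.420 CPM with MoS2 and 61.4 ± 3.04 CPM with PBS. For Tlr1 they were Atad5 at 0.106, the kinase gene Stk10 at 0.138 and Hectd4 at 0.145. With only 2 groups, this distance mostly follows the fold change between them. The log2 fold changes of Atad5, Stk10 and Hectd4 were -0.61, -0.58 and -0.61, beside -0.60 for Tlr1. Shared regulation was not tested. Atad5, which acts in DNA replication, had 20.9 ± 0.284 CPM with MoS2 and 32.0 ± 5.02 CPM with PBS.

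The genes around the receptors in the pathway were read in 5 lists against all tested genes, of which 38.3% were called higher and 42.4% lower, or 2334 genes higher and 8786 lower when scaled by library totals. Called genes in both directions are therefore common here, and the counts alone are no result about a list. Of 18 tested co-receptors, chaperones and trafficking factors, 9 rose and 6 fell (6 and 11 when scaled by library totals). The list median was 0.12 on the log2 scale, beside -0.08 over all tested genes. Slc15a3, a lysosomal transporter of histidine and muramyl dipeptide, had 555 ± 7.23 CPM with MoS2 and 46.7 ± 4.19 CPM with PBS, and rose by 3.57 ± 0.08 on the log2 scale (edgeR adjusted p = 1.2e-13). Hsp90b1, which encodes the chaperone gp96 needed to fold most of these receptors, rose by 2.78 ± 0.07 on the log2 scale (edgeR adjusted p = 7.9e-13). Ly86, whose product pairs with CD180, rose by 1.27 ± 0.07 (edgeR adjusted p = 8e-10 under TMM factors), but by 0.49 with library totals. Cd180 itself, added after its value was seen, fell to 26.2 ± 1.08 CPM with MoS2, against 80.5 ± 10.7 CPM with PBS (edgeR adjusted p = 2.9e-09). Rab7b, a small GTPase reported to direct TLR4 and TLR9 to lysosomes, fell to 8.97 ± 1.12 CPM with MoS2, against 94.7 ± 8.94 CPM with PBS, which is -3.40 ± 0.11 on the log2 scale (edgeR adjusted p = 6.2e-12).

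Further genes of that list were singled out for their role after their values were seen. Unc93b1, which carries the endosomal receptors out of the endoplasmic reticulum, had 429 ± 9.50 CPM with MoS2 and 557 ± 35.7 CPM with PBS, or -0.38 ± 0.06 on the log2 scale (edgeR adjusted p = 8.7e-05). Cd14, which hands lipopolysaccharide to TLR4, had 844 ± 58.7 CPM with MoS2 and 896 ± 71.8 CPM with PBS and was not called (log2 fold change -0.09 ± 0.07, edgeR adjusted p = 0.29), though it had -0.86 with library totals. Ly96, which encodes the TLR4 partner MD-2, had 6.04 ± 0.527 CPM with MoS2 and 3.34 ± 0.682 CPM with PBS, a log2 fold change of 0.85 ± 0.20 that was 0.08 with library totals (edgeR adjusted p = 0.0014 under TMM factors).

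Of 12 tested lysosomal genes, most of them enzymes that cut the endosomal receptors or their nucleic acid ligands, 5 rose and 6 fell (4 and 8 with library totals), near the shares of 38.3% and 42.4% over all tested genes. The list median was -0.03. Cathepsin L, Ctsl, had 1295 ± 97.0 CPM with MoS2 and 342 ± 9.10 CPM with PBS (log2 fold change 1.92 ± 0.07, edgeR adjusted p = 1.5e-11). The exonuclease gene Pld3 rose by 1.80 ± 0.06 (edgeR adjusted p = 7.5e-12) and cathepsin B, Ctsb, by 1.11 ± 0.06 (edgeR adjusted p = 4.3e-10). With library totals these rises were 1.03 for Pld3 and 0.34 for Ctsb. Slc29a3, a nucleoside transporter of lysosomes, fell to 5.82 ± 1.03 CPM with MoS2, against 19.4 ± 1.16 CPM with PBS (log2 fold change -1.74 ± 0.14, edgeR adjusted p = 4.7e-08).

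Downstream of the receptors, 11 of 29 tested adaptors, kinases and transcription factors rose and 13 fell, near the 38.3% and 42.4% of all tested genes, while library totals gave 1 and 25. The list median was -0.11. Ripk1, a kinase of the TRIF branch, fell by 1.99 on the log2 scale (edgeR adjusted p = 3.2e-10). Ticam2, which bridges TLR4 to TRIF, fell to 9.78 ± 1.13 CPM with MoS2, against 29.7 ± 0.422 CPM with PBS (edgeR adjusted p = 7e-09). The NF-kB subunit gene Rela had 43.2 ± 2.35 CPM with MoS2 and 86.3 ± 3.43 CPM with PBS (edgeR adjusted p = 1.7e-08). Irf7, the interferon regulatory factor below TLR7 and TLR9, rose by 2.03 ± 0.07 (edgeR adjusted p = 6.2e-12). The adaptor gene Myd88, singled out after its value was seen, had 27.6 ± 1.84 CPM with MoS2 and 57.9 ± 1.40 CPM with PBS, or -1.07 ± 0.08 on the log2 scale (edgeR adjusted p = 1.9e-08).

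Of 26 tested negative regulators of the pathway, 11 rose and 11 fell (5 and 18 with library totals), beside 38.3% and 42.4% of all tested genes. The list median was 0.03. Atf3, Dusp1 and Zfp36, which restrain cytokine transcription, MAP kinases and cytokine mRNA, rose by 4.24, 3.86 and 3.41 on the log2 scale (edgeR adjusted p of at most 5.3e-13). Nrros, which binds Toll-like receptors in the endoplasmic reticulum and limits their signalling, fell to 16.6 ± 0.754 CPM with MoS2, against 144 ± 4.16 CPM with PBS, which is -3.12 ± 0.07 on the log2 scale (edgeR adjusted p = 4e-13).

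Of 20 tested pattern recognition receptors outside the family, 10 rose and 10 fell (5 and 13 with library totals), beside 38.3% and 42.4% of all tested genes. The list median was -0.13. Clec4d and Clec4e, C-type lectin receptors for microbial glycolipids, rose by 2.40 ± 0.09 and 1.54 ± 0.06 (edgeR adjusted p = 2e-11 and 4e-11), or by 1.63 and 0.77 with library totals. Zbp1, a sensor of Z-form nucleic acids, rose by 2.96 ± 0.21 (edgeR adjusted p = 1.1e-08). The inflammasome sensor Nlrp3 had -3.74 ± 0.13 (edgeR adjusted p = 1.4e-11), a value between those of Tlr9 and Tlr7.

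**Figure D4:**
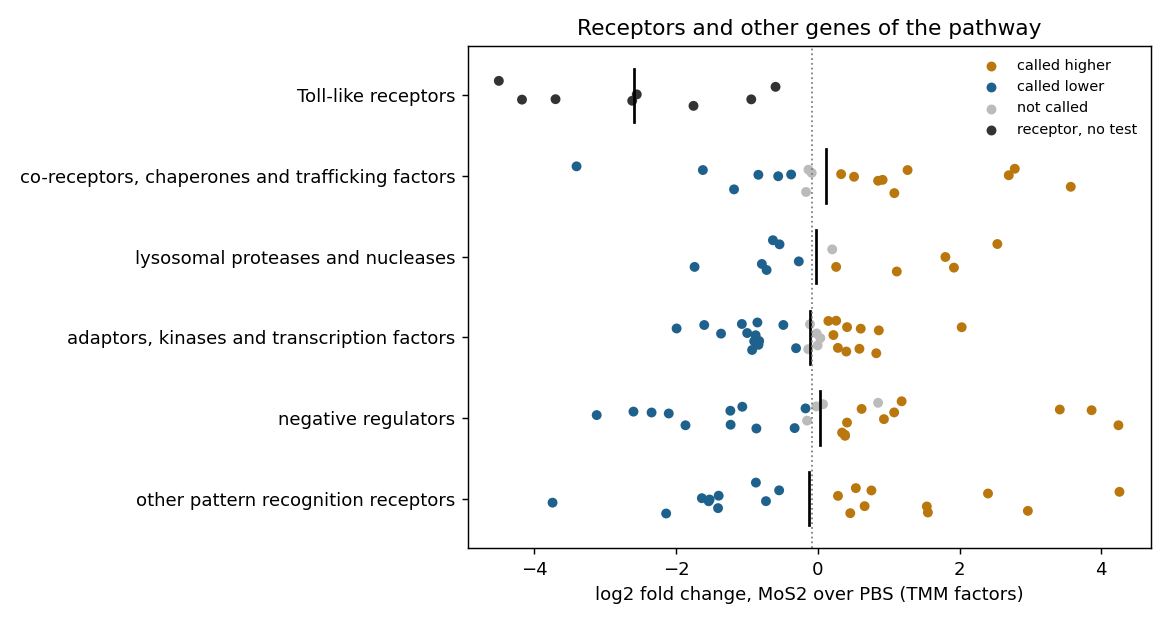
Log2 fold change (MoS2 over PBS, TMM factors) of the 8 tested Toll-like receptors and of the tested genes of the other lists, 1 point per gene, with black bars at the list medians and a dotted line at the median of all tested genes. Orange and blue points passed the edgeR test as higher or lower and grey ones did not. The receptors, chosen with this contrast known, spread from -4.50 to -0.60, and each other list has genes on both sides of 0. Library totals, not drawn here, gave 1 higher and 25 lower among adaptors, kinases and transcription factors.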

How the data were processed

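Bulk RNA of 6 samples (3 MoS2, 3 PBS) was isolated with TRIzol, converted with a NEBNext Ultra kit and read as paired ends, per the labels' protocols. The submitters' processing notes name fastp 0.20.0, HISAT2 2.1.0 and featureCounts 1.6.1. The deposited table holds raw counts per gene, not normalized. The notes name the human build GRCh38, but the identifiers are mouse, and 54349 of 55401 match GENCODE M21 (GRCm38) in both version and coordinates. No source used here gives the strand and multi-mapping settings. Columns were matched to samples by letter and replicate number.

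All genes were fitted with edgeR 4.0.16 (quasi-likelihood F test, TMM factors, default low-count filter of about 10 counts in 3 libraries, prior count 0.125, Benjamini-Hochberg adjustment, threshold 0.05, R 4.3.3). Each SE divides the size of the log2 change by the root of its F statistic and is approximate. CPM are computed here from the counts. The script was tested on simulated data in which few genes changed, evenly up and down. That test therefore does not bear on the choice of scaling for these data. The receptors and the 5 lists of pathway genes were chosen with earlier results of these data known. Of 112 list entries, 112 matched, 1 through a synonym. Named were all receptors, Tlr11 and Tlr12, in each list the 4 genes of lowest adjusted p, and the 3 most alike genes of the receptors with the lowest and highest fold change (mean of at least 5 CPM, pseudocount 0.5 CPM, without pseudogenes and unnamed models). Unc93b1, Cd14, Ly96, Cd180, Myd88 and the macrophage markers given by value were picked after their values were seen. Alternatives were RLE and upper-quartile factors, library totals, other filters, DESeq2 1.42.0, limma-voom (limma 3.58.1), a replicate block and leaving out each library. Removal of the length and GC trend (mgcv 1.9.3) was added after the data were seen. No 2 libraries of a group agreed within sampling noise, with a chi-square per degree of freedom of at least 3.16. Intervals and floors cover counting error only.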

Additional observations from a re-analysis of the deposited data

How the results depend on the processing

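The log2 fold change of each of the 8 tested receptors stayed below 0 in all 15 alternatives (RLE, upper-quartile and total scaling, both other filters, DESeq2, limma-voom, the replicate block, each library left out, and the length and GC trend removed). The ranges were -5.27 to -4.38 for Tlr13, -4.95 to -4.06 for Tlr7, -4.47 to -3.39 for Tlr9, -3.39 to -2.44 for Tlr3, -3.33 to -2.48 for Tlr2, -2.53 to -1.62 for Tlr4, -1.71 to -0.79 for Tlr6 and -1.37 to -0.51 for Tlr1, with library totals giving the lowest value of each, since it shifts all values down and could not turn them. Scaling by library totals alone moved counts of called genes. Over all genes it gave 2334 higher and 8786 lower, against 4964 and 5502 under TMM factors. Among co-receptors, chaperones and trafficking factors it gave 11 lower, among adaptors, kinases and transcription factors 1 higher and 25 lower, among negative regulators 5 higher and 18 lower, and among other pattern recognition receptors 5 higher. That scaling lowers every fold change by construction, with a median shift of -0.77. In the other settings each count was within 1.5 times of its value above. Leaving out a library gave 4843 to 5070 higher and 5334 to 5564 lower genes. The replicate block gave 4848 higher and 5355 lower genes. Same-numbered libraries of both groups deviated with r of -0.02, -0.01 and -0.14, so no deviation shared by number was seen. These values cannot show whether the samples were prepared as pairs, which the labels do not state. At this depth Tlr3 and Tlr9 had 33 and 42 counts in all MoS2 libraries, Tlr5 had no count, and Tlr8 was left out by the filter on low counts.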
